A study of Mus musculus with 66 samples.

Results

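The 10 genes described here build the presynaptic active zone or act in the release of transmitter from it: Erc1, Erc2, Rims1, Rims2, Rims4, Bsn, Unc13c, Snap25, Syt1 and Syn3. They were taken by name, with earlier results of these data known. Every region that the authors had assigned to one of them in any of 7 lists of differential chromatin regions was kept. This gave 97 regions of 57678 in all. Of these, 82 came from CATCH-IT and 15 from H3.3 immunoprecipitation, and 0 of the 7 regions listed for H3.1/2 belonged to one of the genes. Each of the 10 genes had at least 1 CATCH-IT region, beside 39.4% of all protein-coding gene symbols. An H3.3 region was listed in 9 of the 10, beside 9.56%. Because the genes were chosen with results known, these counts cannot show an excess over other genes. The shares also take no account of gene length. Per Mb of gene, CATCH-IT listed 21.9 regions in these genes, beside 23.4 over all protein-coding genes.

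At the active zone, synaptic vesicles dock at the presynaptic membrane and fuse with it when calcium enters. Large scaffold proteins (bassoon, ERC and RIM proteins) hold vesicles and calcium channels close together, Munc13 proteins prime vesicles, the SNARE protein SNAP-25 takes part in the fusion machine, synaptotagmin senses calcium, and synapsins tether the reserve of vesicles. H3.3 is the histone H3 variant that is placed into chromatin without DNA replication, and in neurons, which no longer divide, it is the form that is exchanged. The regions below report histone occupancy along these genes, not their expression.

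Cortical neurons of C57bl/6 mouse embryos (E16.5) were cultured for 8 days and depolarised with isotonic KCl, or left unstimulated. H3.3 chromatin was collected after 30 min, 2 hr and 5 hr. H3.1/2, the replication-linked form, and CATCH-IT, which captures newly made histones on streptavidin beads after metabolic labelling and so reads histone turnover, were run after 5 hr. H3.3 was also immunoprecipitated from sorted hippocampal nuclei of adult mice of about 7 weeks, NeuN+ (neurons) or NeuN- (other cells), after 4 weeks of environmental enrichment or after normal housing. The labels give no transgene or mutation for the groups used here. Each list had 3 libraries per group, except NeuN+ with 2, and the protocol calls the culture samples biological triplicates and the animal samples duplicates.

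All values are the authors' normalised read counts per library, given with SD over the libraries of the group (n = 3, in NeuN+ n = 2). A single read stood for 0.758 to 1.36 in the H3.3 culture libraries, 0.785 to 1.51 in NeuN+, 0.542 to 2.64 in NeuN- and 0.316 to 2.72 in CATCH-IT. At the 15 H3.3 regions the higher group held 18 to 44 reads over its libraries. The lists hold only regions that the authors had chosen on these libraries for a change of about 3-fold or more, and the p-values are the authors' own. An exact permutation test of 3 libraries against 3 cannot go below 0.1, so no further test was made per region. The order of libraries within a group is that of the deposited values, which carry no library names. A region missing from a list is not shown to be stable. Each group had a lane of its own at 30 min, at 2 hr, in NeuN- nuclei and in CATCH-IT, and the NeuN+ groups shared no lane, so lane and treatment cannot be told apart there. At 5 hr both H3.3 groups carried the same lane numbers, which alone does not show that their libraries shared lanes. In pooled nuclei, fewer nuclei with H3.3 at a site and less H3.3 per nucleus cannot be told apart.

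The DNA of 7 of the H3.3 regions follows, on the coding strand of each gene (mm9), with CpG dinucleotides in capitals. They are the 30 min region of the SNARE gene, the single 2 hr region, both 5 hr regions, and the regions of Rims2 and Bsn that lay within 10 kb of an H3.3 region from another comparison.
Snap25, lost at 30 min, chr2:136565681-136565880, + strand: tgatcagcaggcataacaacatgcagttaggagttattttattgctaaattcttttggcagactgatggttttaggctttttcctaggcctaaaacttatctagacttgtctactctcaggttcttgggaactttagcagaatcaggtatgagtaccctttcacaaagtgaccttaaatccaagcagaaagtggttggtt
Erc2, lost at 2 hr, chr14:28807941-28808220, + strand: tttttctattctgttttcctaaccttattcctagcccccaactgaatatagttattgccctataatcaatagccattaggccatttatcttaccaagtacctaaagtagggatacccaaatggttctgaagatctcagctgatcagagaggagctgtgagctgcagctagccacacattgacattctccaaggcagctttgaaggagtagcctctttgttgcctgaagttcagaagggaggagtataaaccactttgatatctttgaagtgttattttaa
Syn3, gained at 5 hr, chr10:85848381-85848580, - strand: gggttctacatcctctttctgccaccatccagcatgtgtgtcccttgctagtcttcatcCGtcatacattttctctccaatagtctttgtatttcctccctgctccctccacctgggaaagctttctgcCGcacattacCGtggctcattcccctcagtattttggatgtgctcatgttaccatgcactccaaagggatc
Rims2, lost at 5 hr, chr15:39455081-39455280, + strand: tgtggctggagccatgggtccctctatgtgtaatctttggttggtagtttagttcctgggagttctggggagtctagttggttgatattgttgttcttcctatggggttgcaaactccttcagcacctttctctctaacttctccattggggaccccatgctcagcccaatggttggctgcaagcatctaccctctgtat
Rims2, lost in NeuN+ nuclei, chr15:39446221-39446440, + strand: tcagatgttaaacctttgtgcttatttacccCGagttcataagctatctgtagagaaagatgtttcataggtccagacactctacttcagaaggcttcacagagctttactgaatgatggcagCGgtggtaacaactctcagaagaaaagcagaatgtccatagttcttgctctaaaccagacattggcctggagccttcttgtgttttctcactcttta
Bsn, lost in NeuN+ nuclei, chr9:108082681-108082900, - strand: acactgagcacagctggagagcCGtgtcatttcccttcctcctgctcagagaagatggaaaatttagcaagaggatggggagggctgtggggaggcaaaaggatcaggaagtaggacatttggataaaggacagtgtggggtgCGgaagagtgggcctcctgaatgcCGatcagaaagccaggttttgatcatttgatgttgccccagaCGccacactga
Bsn, lost in NeuN- nuclei, chr9:108075781-108076040, - strand: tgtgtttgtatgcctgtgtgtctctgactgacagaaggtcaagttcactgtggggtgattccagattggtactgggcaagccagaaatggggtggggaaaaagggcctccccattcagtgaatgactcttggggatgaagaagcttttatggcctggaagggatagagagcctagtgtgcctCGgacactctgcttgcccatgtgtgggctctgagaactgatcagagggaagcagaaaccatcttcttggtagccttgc
The Snap25 and Erc2 regions and the Rims2 region of the 5 hr list hold no CpG, and the Bsn region of NeuN+ nuclei holds 4. Among all lost regions, 14.5% at 30 min, 21.2% at 2 hr and 13.7% at 5 hr hold no CpG. In 13 of the 15 H3.3 regions every 32-base word occurred once in the mm9 genome. The exceptions were the Rims2 region of the 5 hr list, where 39.1% of words occurred more than once and one of them 952 times, and the Rims4 region, with 6.51%.

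Over time in KCl, H3.3 regions of these genes were listed as lost at 30 min and 2 hr and in both directions at 5 hr. At 30 min 0 of 3 regions were gained and 3 were lost, beside 20.1% gained and 79.9% lost among all 457 listed regions. At 2 hr 0 of 1 was gained and 1 was lost, beside 14.4% and 85.6% of 689. At 5 hr 1 was gained and 1 lost, beside 44.2% and 55.8% of 667. In the authors' deposited tables the adjusted p was 0.05 or less in 3 of 3, 1 of 1 and 0 of 2 of them, beside 98.5%, 99.6% and 3% of all listed regions. These counts are too few to set them apart from the lists. Different genes were listed each time, Erc1, Snap25 and Syt1 at 30 min, Erc2 at 2 hr, and Rims2 and Syn3 at 5 hr, so no region can be followed over time.

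Housing gave 9 regions, and the nuclear fractions did not list the same sites. In NeuN+ nuclei H3.3 fell at Erc1, Rims2 and Bsn, in 3 of 3 regions, beside 28.2% lost and 71.8% gained among all 1642 listed regions. Without the first enriched or the first normally housed library, 1 of the 3 would still be 3-fold down. In NeuN- nuclei 4 of 6 regions were gained (Erc1, Rims4, Unc13c and Syn3) and both Bsn regions were lost, beside 70.7% gained and 29.3% lost of 1196. In the authors' deposited tables the adjusted p was 0.05 or less in all 9, beside 97.8% of the NeuN+ list and 99.8% of the NeuN- list. Erc1 was thus listed as lost in one fraction and gained in the other, at sites 203020 bp apart, and Bsn as lost in both. Whether the fractions differ at one site cannot be told from the lists, which hold no value for the other fraction there.

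**Figure D1:**
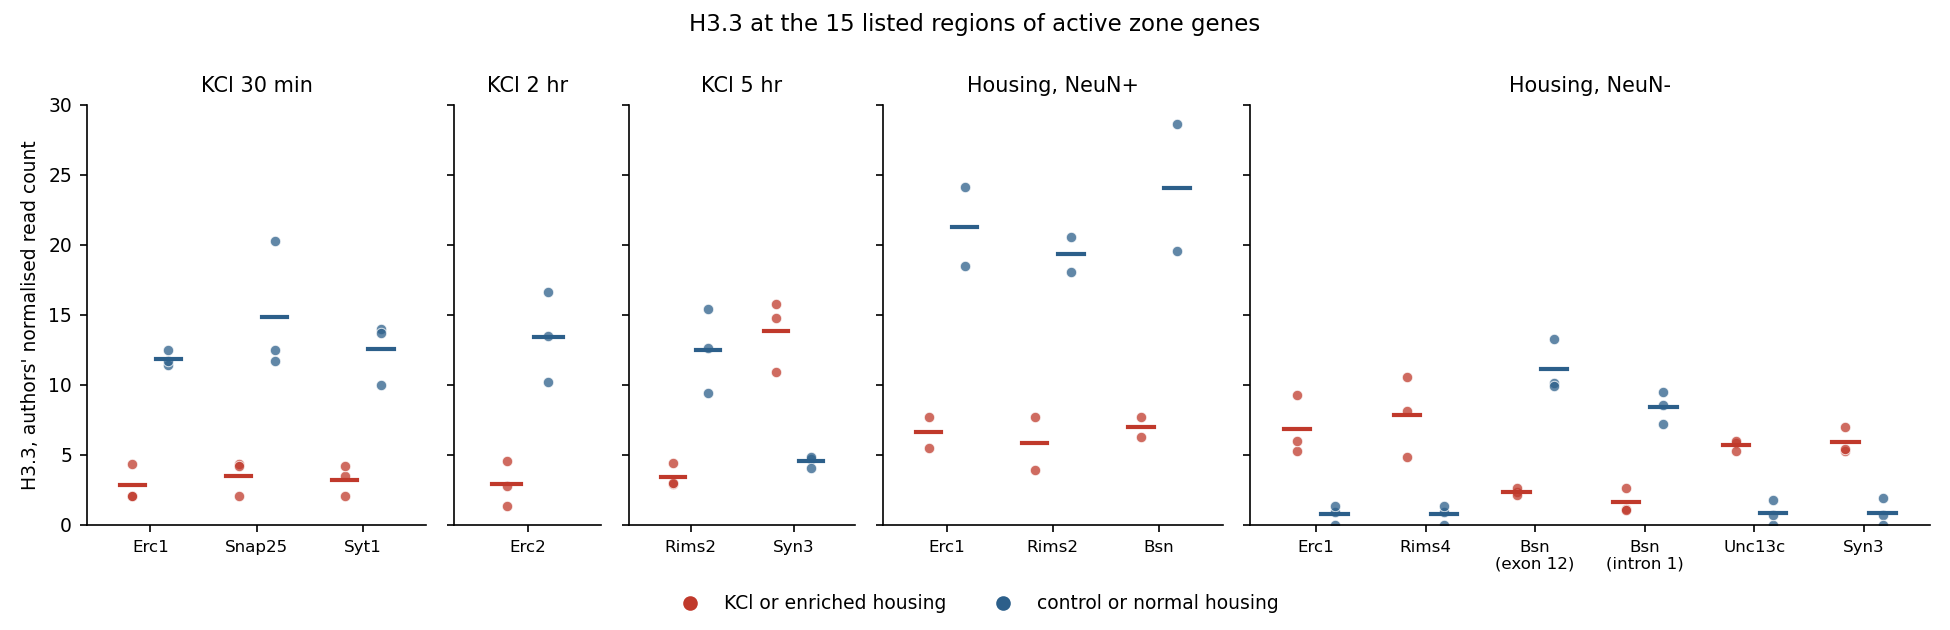
H3.3 at the 15 regions, in the authors' normalised read counts (y axis), by gene and comparison (x axis). Points are single libraries and bars are group means, red for KCl or enriched housing and blue for control or normal housing. In no region do the groups overlap, which holds for 100% of each H3.3 list. Red is above blue at Syn3 after 5 hr and at 4 of the 6 NeuN- regions.

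Erc1 encodes an ERC scaffold that binds RIM and liprin proteins, and it had an H3.3 region in 3 comparisons. After 30 min of KCl its region in intron 15 (chr6:119621781-119621980) held 4.32, 2.1 and 2.06 in KCl libraries, against 11.41, 12.49 and 11.72 in control libraries. The groups did not overlap, which holds for 100% of the 30 min list, and the control libraries lay close together. The means were 2.83 ± 1.29 in KCl and 11.9 ± 0.556 in control. The log2 fold change was -2.07 (adjusted p = 0.0257) in the authors' deposited table, with 0.20 times input in KCl and 2.53 times in control. In NeuN+ nuclei a region in intron 3 (chr6:119732641-119732840) fell as well, with 5.49 and 7.71 after enrichment and 24.09 and 18.49 in normal housing. By the authors' deposited table the log2 fold change was -1.69 (adjusted p = 0.0395). Without the first enriched or the first normally housed library the change would be under 3-fold, at -1.47 and -1.49 on the log2 scale. In NeuN- nuclei a region in intron 18 near the gene end (chr6:119529421-119529620) rose, with 9.31, 5.28 and 5.96 after enrichment and 0.95, 1.35 and 0 in normal housing. Its log2 fold change was 3.16 (adjusted p = 0.00556) in the authors' deposited table. The log2 fold change would be 3.85 without the second normally housed library and 2.57 without the third. The 3 regions lay at least 92160 bp apart, so they are separate sites in a gene of 277347 bp.

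Erc2, the second ERC scaffold gene and the longest of the 10 at 856108 bp, had the single H3.3 region of the 2 hr list. It lay in intron 7 (chr14:28807941-28808220) and held 2.76, 4.55 and 1.36 in KCl libraries, against 10.18, 16.66 and 13.5 in control libraries. The groups did not overlap, which holds for 100% of the 2 hr list. The means were 2.89 ± 1.60 in KCl and 13.4 ± 3.24 in control. The log2 fold change was -2.22 (adjusted p = 0.0143) in the authors' deposited table. Relative to input, the authors' deposited table gave 0.46 in KCl and 2.06 in control.

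Among the RIM genes, whose proteins tether calcium channels and recruit Munc13, Rims2 had regions listed as lost near its end in both culture and animals. After 5 hr of KCl its region in intron 21 (chr15:39455081-39455280) was listed as lost, with 2.95, 4.39 and 2.98 in KCl libraries and 9.44, 15.38 and 12.61 in control libraries. In the authors' deposited table the log2 fold change was -1.86 with an adjusted p that does not pass 0.05 (0.110). The groups did not overlap, which holds for 100% of that list. In enriched NeuN+ nuclei the region in intron 20 (chr15:39446221-39446440) fell to 3.92 and 7.71, against 18.07 and 20.55 in normally housed ones. By the authors' deposited table the log2 fold change was -1.73 (adjusted p = 0.0395). Without the first enriched library it would be -1.32. These regions were 8640 bp apart, at 87.9% and 86.1% of the gene length, and did not overlap. Rims4 encodes a short RIM form that lacks most domains of the longer ones, and H3.3 rose in its intron 2 (chr2:163703081-163703280) in enriched NeuN- nuclei. It held 8.14, 10.57 and 4.88 after enrichment and 0.95, 1.35 and 0 in normal housing. Its log2 fold change was 3.36 (adjusted p = 0.00556) in the authors' deposited table. It would be 4.05 without the second normally housed library and 2.77 without the third. Rims1 had no region in any H3.3 list.

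Bsn encodes bassoon, a giant scaffold of the active zone, and all 3 of its H3.3 regions fell with enriched housing. In NeuN+ nuclei a region in intron 1 (chr9:108082681-108082900) held 6.28 and 7.71 after enrichment and 28.6 and 19.52 in normal housing. The means were 7.00 ± 1.01 after enrichment and 24.1 ± 6.42 in normal housing. The log2 fold change was -1.78 (adjusted p = 0.0379) in the authors' deposited table, and it would be -1.48 without the first normally housed library. In NeuN- nuclei another region of the same intron (chr9:108075781-108076040), 6640 bp further into the gene, held 1.16, 2.64 and 1.08 after enrichment and 8.53, 9.46 and 7.23 in normal housing. Those values are 1, 1 and 2 reads after enrichment and 9, 14 and 8 reads in normal housing. By the authors' deposited table the log2 fold change was -2.37 (adjusted p = 0.00556), with 0.80 times input after enrichment and 9.51 times in normal housing. That last ratio was the highest among the 15 regions.

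The third Bsn region (chr9:108000101-108000420) lay in the 3′ untranslated part of exon 12, 1906 bp from the gene end. It held 2.33, 2.64 and 2.17 after enrichment and 13.27, 10.14 and 9.95 in normal housing. The groups did not overlap, which holds for 100% of the NeuN- list. Its log2 fold change was -2.22 (adjusted p = 0.00466) in the authors' deposited table, and the region was named a promoter region. Bsn lies on the minus strand. In the NeuN- list, distances of all 306 regions on that strand were counted from the lower coordinate, which is the 3′ end of such a gene, so this region is not at the Bsn start. The same held for the 30 min and 2 hr lists, and positions here were therefore recomputed from the annotation.

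Unc13c, which encodes the Munc13 form known mainly from cerebellar granule cells, gained H3.3 in intron 1 (chr9:73693941-73694160) in enriched NeuN- nuclei. The region held 5.82, 5.28 and 5.96 after enrichment and 0, 0.68 and 1.81 in normal housing. The log2 fold change was 2.78 (adjusted p = 0.00776) in the authors' deposited table. It would be 2.19 without the first normally housed library and 4.06 without the third. In reads this was 5, 2 and 11 after enrichment and 0, 1 and 2 in normal housing, so like normalised values came from unequal numbers of reads.

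Snap25, the SNARE of the plasma membrane, and Syt1, the fast calcium sensor of vesicles, each had a region where H3.3 fell after 30 min of KCl. The Snap25 region in intron 1 (chr2:136565681-136565880) held 4.32, 4.21 and 2.06 in KCl libraries and 20.29, 12.49 and 11.72 in control libraries. The Syt1 region in intron 3 (chr10:108134061-108134260) held 3.46, 4.21 and 2.06 in KCl libraries and 13.95, 9.99 and 13.67 in control libraries. Neither pair of groups overlapped, which holds for 100% of the 30 min list, and one control library of Snap25 stood well above the others. In the authors' deposited table the log2 fold change was -2.07 for Snap25 (adjusted p = 0.0266) and -1.95 for Syt1 (adjusted p = 0.0278). Relative to input, Snap25 stood at 0.72 in KCl and 2.05 in control, and Syt1 at 0.66 in KCl and 1.44 in control, by the authors' deposited table.

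Syn3 encodes a synapsin, a phosphoprotein that ties vesicles into the reserve pool, and it was the one gene with only gained H3.3 regions in more than 1 comparison. After 5 hr of KCl a region in intron 4 (chr10:85848381-85848580) was listed as gained, with 14.75, 15.8 and 10.91 in KCl libraries and 4.72, 4.1 and 4.85 in control libraries. By the authors' deposited table the log2 fold change was 1.60 (adjusted p = 0.110), which does not pass. Without the first or the second KCl library, or without the second control library, the change would be under 3-fold, at 1.55, 1.49 and 1.53 on the log2 scale. In enriched NeuN- nuclei a region in intron 6 (chr10:85637921-85638120) rose, with 6.98, 5.28 and 5.42 after enrichment and 1.9, 0.68 and 0 in normal housing. Its log2 fold change was 2.78 (adjusted p = 0.00776) in the authors' deposited table. It would be 4.12 without the first normally housed library and 2.19 without the third. The 2 regions were 210260 bp apart.

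The gained NeuN- regions rest on few reads. Over the 3 libraries the sums were 21, 20, 18 and 18 reads after enrichment for Erc1, Rims4, Unc13c and Syn3, and 3 reads in normal housing for each. In the second enriched library, where a single read stood for 2.64, these were 2, 4, 2 and 2 reads. Without any one library of either group these regions kept their direction, which must be so where the groups do not overlap. In all 5 H3.3 lists together the groups did not overlap in 15 of 15 regions of these genes, beside 100% of all regions in each list.

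**Figure D2:**
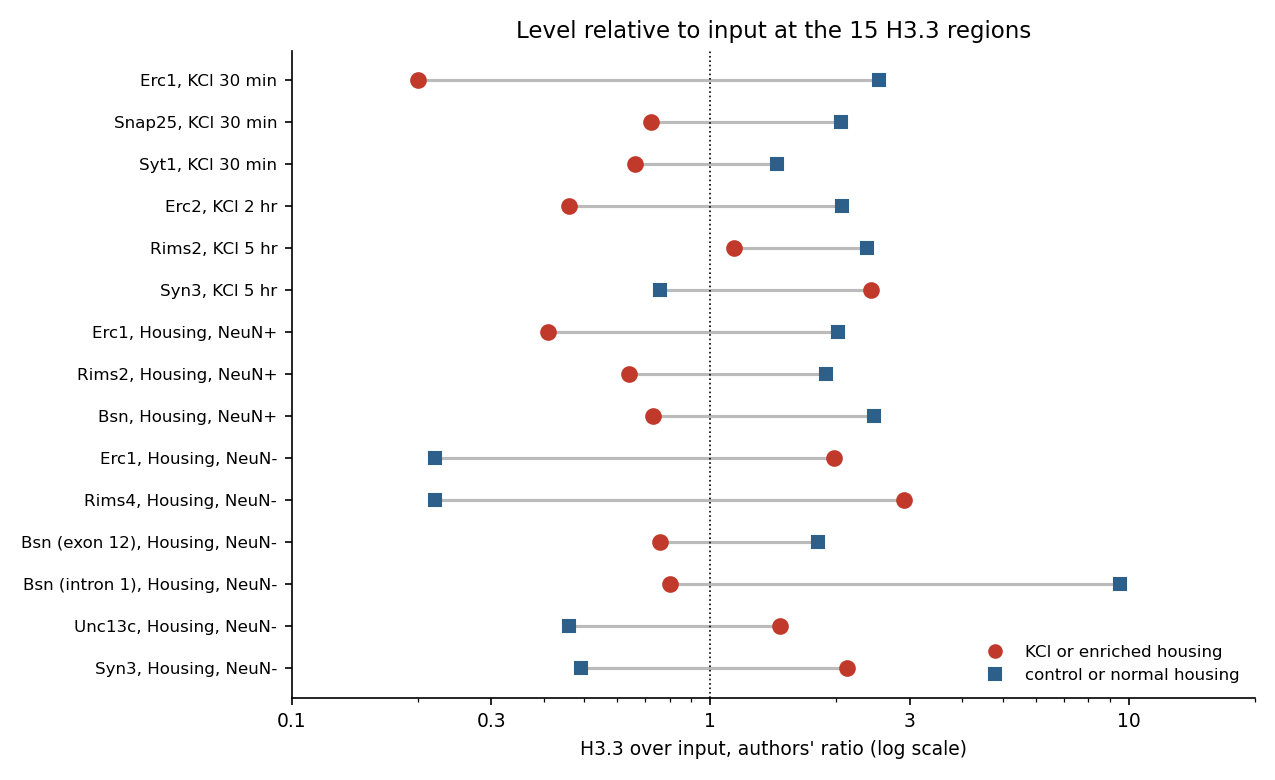
The authors' ratio of H3.3 to input (x axis, log scale) at the 15 regions, red circles for KCl or enriched housing and blue squares for control or normal housing. Lines join the groups of a region, and the dotted line marks the input level; 15 of 15 regions moved the same way as the count.

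The ratios to input in the authors' deposited tables moved the same way as the counts in all 15 regions. Among all listed regions with finite ratios this held for 96.2% at 30 min, 95.7% at 2 hr, 99.7% at 5 hr, 100% in NeuN+ and 99.8% in NeuN-. Ratios that were not finite left out 13 regions at 30 min, 20 at 2 hr and 95 in NeuN-, none of them in these genes. At the lost regions the KCl or enriched group stood between 0.20 (Erc1 at 30 min) and 1.14 times input (Rims2 at 5 hr) in the authors' deposited table. At the gained regions it stood between 1.47 (Unc13c) and 2.90 times input (Rims4). The ratio has that same count in it, and the labels give 1 input library per group in culture and in NeuN-.

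Most regions lay within introns. Of the 15 H3.3 regions 14 were intronic and 1 was in a 3′ untranslated exon, and 0 lay within 3 kb of an annotated transcript start. Over the 5 H3.3 lists, 19.6% of the 2826 regions with an assigned transcript lay within 3 kb of its start. The median position of the 15 H3.3 regions was 61.1% of the gene length from the start, with a range of 10.5% to 98.0%. Of the 82 CATCH-IT regions 78 were intronic, 3 touched a coding exon and 1 lay upstream of its gene, and the median position was 59.8%. The H3.3 lists held 0.772 regions per Mb of these genes at 30 min, beside 0.311 per Mb over all protein-coding genes. At 2 hr it was 0.257 beside 0.441, at 5 hr 0.515 beside 0.465, in NeuN+ 0.772 beside 0.812, and in NeuN- 1.54 beside 0.556. The CATCH-IT list held 21.9 regions per Mb beside 23.4. Because the genes were chosen with earlier results of these data known, a higher density here cannot show an excess over other genes.

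**Figure D3:**
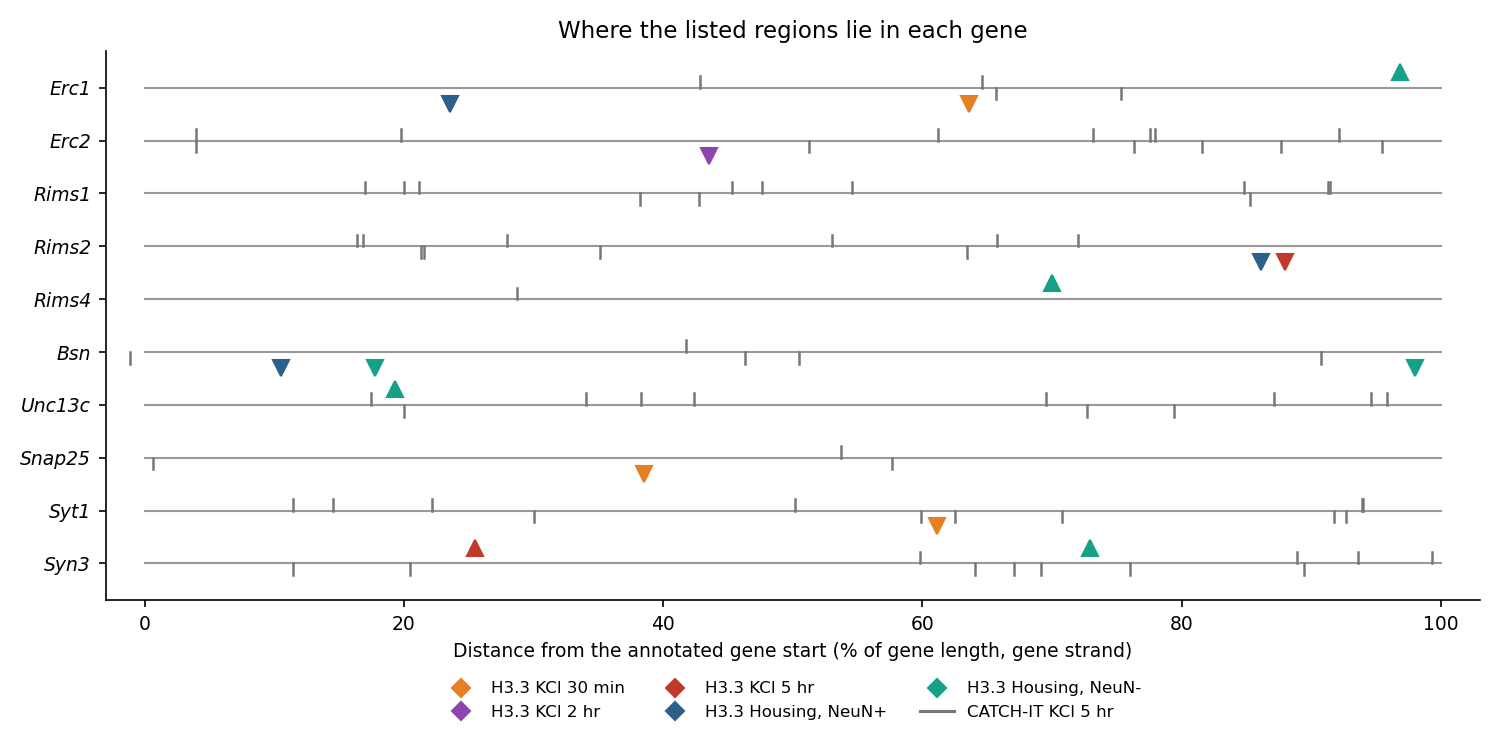
Position of each listed region along its gene, in percent of gene length from the annotated start on the gene's own strand (x axis), by gene (rows). Triangles pointing up are gained and pointing down lost H3.3 regions, coloured by comparison, and ticks above or below the line are gained or lost CATCH-IT regions; Rims2 has 2 lost H3.3 regions side by side at 86.1% and 87.9%.

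CATCH-IT after 5 hr of KCl listed 82 regions in the 10 genes, 45 gained and 37 lost. Gained regions made up 54.9% of them, beside 57.3% gained and 42.7% lost of all 53020. In the authors' deposited table all 82 had an adjusted p of 0.05 or less, beside 100% of the list. The groups did not overlap in any of the 82, beside 99.2% of the list. Rims1 had 9 gained and 3 lost regions, Unc13c 8 and 3, and Erc2 7 and 6. Rims2 had 6 gained and 4 lost, Syt1 6 and 6, Erc1 2 and 2, and Rims4 a single gained one. Lost regions outnumbered gained ones in Syn3, with 4 gained and 7 lost, Bsn, with 1 and 4, and Snap25, with 1 and 2. Per 100 kb of gene the count was highest in Bsn, at 5.30, and lowest in Erc1, at 1.44.

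**Figure D4:**
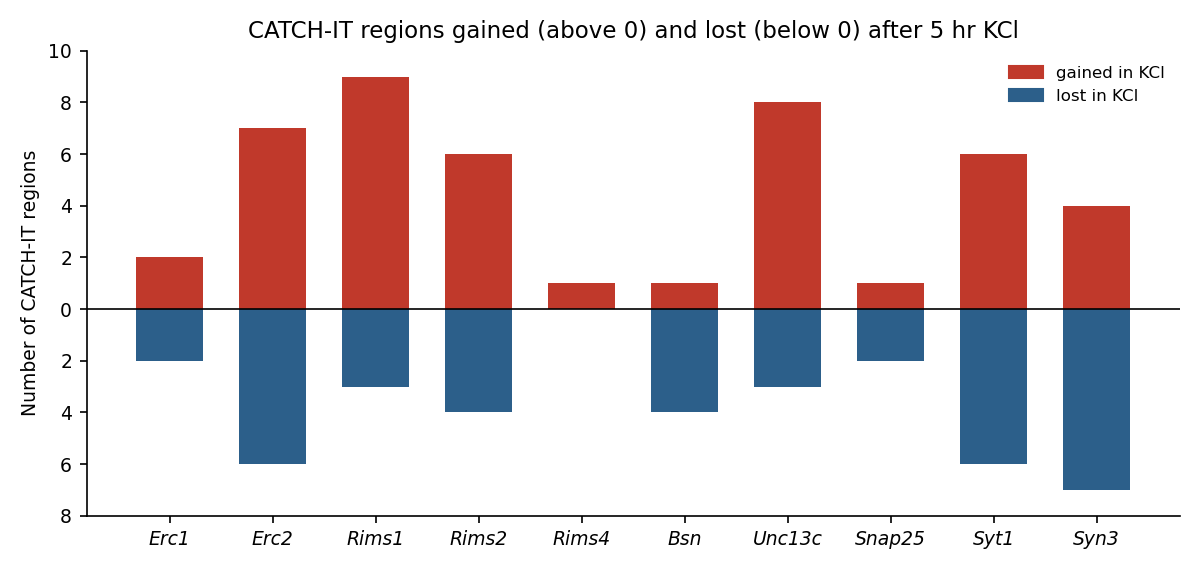
Number of CATCH-IT regions gained (red, above 0) and lost (blue, below 0) in KCl over control after 5 hr (y axis), for each gene (x axis). Rims1 has the most gained regions, 9, and Syn3 the most lost ones, 7.

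Nearly every CATCH-IT region had reads in one group and none in the other. Of the 45 gained regions 43 had 0 reads in all control libraries, and of the 37 lost regions all 37 had 0 in all KCl libraries. Over the whole list the other group was at 0 in 96.5% of gained and 99.4% of lost regions. The log2 fold change is then infinite in the authors' deposited table, and no fold is given. The higher group had a median of 16 reads over its 3 libraries in gained regions (10 to 49) and 19 in lost regions (14 to 32), beside 17 and 21 over the whole list. All 82 regions had at least 1 read in every library of the higher group, so the naming of regions by that property would take in all of them. The 2 with the smallest adjusted p per gene follow, ties taken by the larger mean.

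In the scaffold genes these were mostly gained regions. The pick by adjusted p leans that way, since all 12 regions at the smallest adjusted p in the authors' deposited table were gained. The counts of both directions per gene are those given above. Erc1 had gained regions in introns 12 and 15, with 2.67, 9.59 and 16.31, and with 4.01, 6.92 and 8.15, in KCl libraries, and 0 in every control library. Erc2 had gained regions in introns 14 and 13, with 24.05, 12.78 and 19.03, and with 6.68, 3.2 and 13.59, in KCl libraries, and 0 in every control library. The intron 14 region of Erc2 held the most reads of the 82, 18, 24 and 7 in the KCl libraries. Rims1 had intronic gained regions with 32.06, 1.6 and 16.31, and with 25.38, 3.2 and 16.31, in KCl libraries. The second library was lowest in these normalised values. In reads they were 24, 3 and 6, and 19, 6 and 6. Rims2 had gained regions in introns 18 and 6, with 8.02, 3.2 and 16.31, and with 10.69, 3.2 and 13.59. The single Rims4 region, in intron 1, was gained with 1.34, 6.92 and 2.72, which is 1, 13 and 1 reads. Control libraries were at 0 in all of these Rims1, Rims2 and Rims4 regions. In the authors' deposited table the adjusted p was 4.15e-07 for both regions of Erc1 and of Rims1, and 0.000116 for Rims4.

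In Bsn both of the leading regions were lost. A region upstream of the gene (chr9:108093601-108093980), centred 1076 bp before the annotated start, held 0 in every KCl library and 1.26, 16.63 and 8.28 in control libraries. A region in intron 1 held 0 in KCl libraries and 1.26, 4.16 and 15.37 in control libraries. In the authors' deposited table their adjusted p were 7.43e-06 and 6.27e-05. Snap25 also had a lost region by its start, in intron 1 and 452 bp from the annotated start (chr2:136539461-136539820). It held 0 in KCl libraries and 0.32, 16.63 and 1.18 in control libraries, which is 1, 12 and 1 reads, with an adjusted p of 0.000102 in the authors' deposited table. These were the 2 regions of 82 within 3 kb of a gene start, beside 11.6% of the CATCH-IT regions with an assigned transcript. The other leading Snap25 region, 39772 bp into the gene, was lost as well, with 0 in KCl libraries and 0.32, 16.63 and 2.37 in control libraries.

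Of the other genes, Unc13c had gained regions in introns 7 and 25, with 8.02, 3.2 and 16.31, and with 16.03, 6.39 and 46.2, in KCl libraries, and 0 in control libraries. Syt1 had gained regions in introns 9 and 1, both with 8.02, 3.2 and 16.31 in KCl libraries and 0 in control libraries. Syn3 had a gained region in intron 7, which also lies in the annotated gene 4930486F22Rik, with the same 3 values, and a lost one in intron 6 with 0 in KCl libraries and 3.47, 11.09 and 14.19 in control libraries. The 3 regions that touched a coding exon, in exon 28 of Rims1, exon 8 of Bsn and exon 20 of Unc13c, were all lost. Of the whole list 42.7% were lost, and no share for coding-exon regions is given. These 3 are too few to show a pattern. In control libraries they held 3.16, 13.86 and 14.19 in Rims1, 1.26, 1.39 and 14.19 in Bsn, and 0.95, 4.16 and 14.19 in Unc13c, with 0 in every KCl library. In reads these were 10, 10 and 12 in Rims1, 4, 1 and 12 in Bsn, and 3, 3 and 12 in Unc13c.

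The recurring values 8.02, 3.2 and 16.31 are 6 reads in each of the KCl libraries. They stood in 6 of the 45 gained regions of these genes, or 13.3%, and in 1573 of all 30359 gained regions, or 5.18%. Library values at a whole multiple of 6 reads made up 33.3% of the values in gained regions of the genes and 39.6% in lost ones, beside 29.5% and 46.6% over all listed regions. Of the lost regions of the genes 35 of 37 had at least 1 control library at such a multiple, and 27 of 45 gained regions had a KCl library there. That is 94.6% and 60%, beside 94.8% and 59.6% over the whole list. The name of the deposited list carries the mark dup6, whose meaning the labels do not give, and its part in these values was not tested. Without the regions that had such a value, 18 gained and 2 lost regions would be left.

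**Figure D5:**
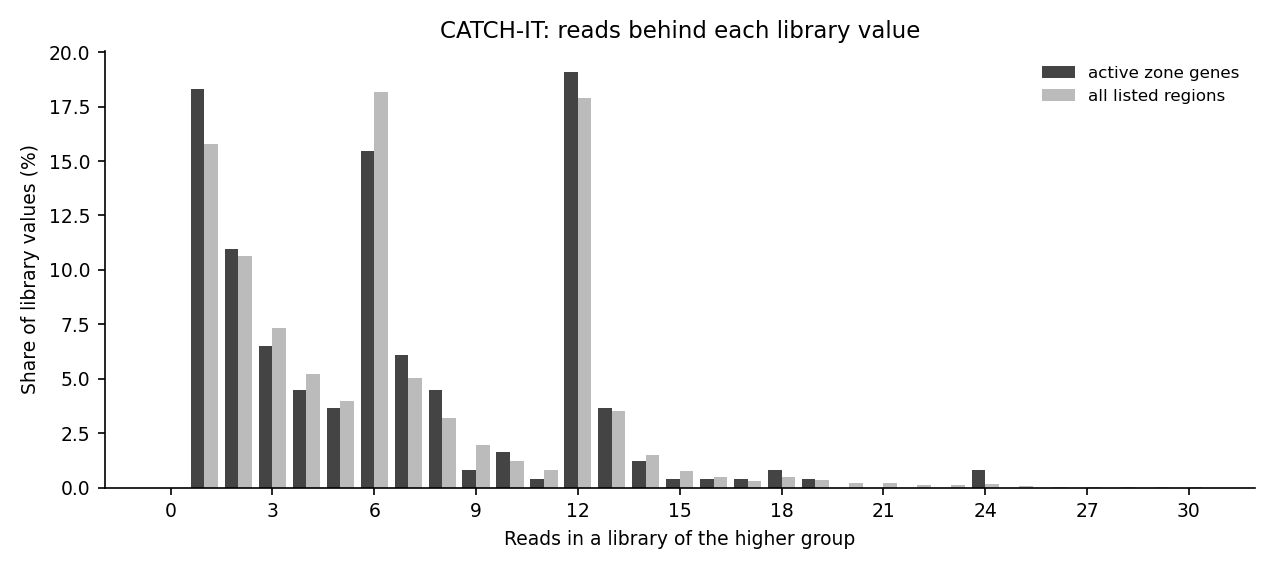
Share of library values (y axis, percent) by the number of reads behind them (x axis), in the libraries of the higher group of each CATCH-IT region, dark for the active zone genes and light for all listed regions. Values of 6 and of 12 reads stand above their neighbours in both sets, at 15.4% and 19.1% of values in these genes.

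CATCH-IT and H3.3 regions of these genes did not coincide. Of 116 pairs of regions of the same gene from different lists, 0 overlapped. Among these pairs 7 were between H3.3 lists. No share over all listed regions is given beside this 0, and the regions are short beside the genes (200 to 440 bp in CATCH-IT). The 0 therefore does not set these genes apart from others. The nearest were the Erc1 region lost for H3.3 at 30 min and a gained CATCH-IT region 2600 bp away, and the Unc13c region gained in NeuN- nuclei and a lost CATCH-IT region 3040 bp away. Within the CATCH-IT list, 5 neighbouring pairs lay within 2 kb of each other, and 4 of them moved the same way. The exception was in intron 2 of Erc2, where a lost region (0 in KCl libraries, 0.32, 16.63 and 1.18 in control libraries) and a gained one (1.34, 6.92 and 2.72 in KCl libraries, 0 in control libraries) were 200 bp apart. In reads these were 1, 12 and 1 in control libraries and 1, 13 and 1 in KCl libraries. The same sets of values stood in 756 lost and 977 gained regions of the whole list.

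Base composition and repeats were described for the same regions. The 3 regions lost at 30 min had 36% to 40.5% GC, beside a median of 47.5% in all lost regions of that list, and the Erc2 region had 40.4%, beside 44.5%. The Syn3 and Rims2 regions of the 5 hr list both had 49% GC, beside medians of 51.4% in gained and 44.2% in lost regions. In NeuN+ nuclei the lost regions of these genes had a median of 52% GC, beside 46%. In NeuN- nuclei the lost ones had a median of 49.4%, beside 48%, and the gained ones 46.3%, beside 45.9%. In CATCH-IT the medians were 41.6% in gained and 44.4% in lost regions of these genes, beside 43.2% and 42.7%. The motif TGANTCA, with any base at N, takes in more sequences than the AP-1 site. This motif was in 0 of the 15 H3.3 regions and 6.71% of all 4651 H3.3 regions. It was in 11 of the 82 CATCH-IT regions, or 13.4%, beside 10.8% of all. The cyclic AMP response motif TGACGTCA was in 0 of the 15 and 0 of the 82, beside 0.0645% of all H3.3 and 0.234% of all CATCH-IT regions. Its part TGACG or CGTCA, searched on its own and so also found within the full motif, was in 2 H3.3 regions, both in Syn3. That part was in 7.12% of all H3.3 regions, and in 4 of the 82 CATCH-IT regions, or 4.88%, beside 9.41% of all. Each motif was read on both strands. In 4 CATCH-IT regions over 50% of the 32-base words occurred more than once in the genome, namely a gained region of Rims2, 2 gained regions of Rims1 and a lost region of Syt1.

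Of 78 other genes of the release machinery, 16 had an H3.3 region in some list, or 20.5%, beside 9.56% of all protein-coding gene symbols. These genes too were chosen with earlier results of these data known. This share and the CATCH-IT share below take no account of gene length. At 30 min 0 of 78 were listed. At 2 hr 4 were listed, 1 gained and 3 lost, beside 14.4% gained in the list, all with an adjusted p of 0.05 or less in the authors' deposited table. H3.3 at Ppfia1, a liprin scaffold gene, fell to 3.68, 3.79 and 0 in KCl libraries, against 9.16, 13.33 and 13.5 in control libraries. The calcium channel genes Cacna1e and Cacna2d1 fell as well. H3.3 at Cacna1b, which encodes the N-type channel, rose, with a mean of 12.6 in KCl and 2.41 in control. At 5 hr 5 genes were listed, 3 gained and 2 lost, beside 44.2% gained in the list, and the adjusted p passed in none of them in the authors' deposited table (0.109 to 0.110). In NeuN+ nuclei 7 genes had 11 regions, 6 gained and 5 lost, beside 71.8% gained in the list. There the endocytosis genes Sh3gl2 and Amph fell, Sh3gl2 to 5.67 ± 1.97 after enrichment against 21.8 ± 3.23 in normal housing. Cadps2, which primes dense-core vesicles, and Syt15 rose, and Cacna1a, Cacna2d2 and Cacna2d3 had 4 gained and 3 lost regions between them. In NeuN- nuclei Syt2 and Syt17 rose and Sv2c, a vesicle glycoprotein gene, fell to 0.180 ± 0.312 after enrichment against 6.03 ± 0.323 in normal housing, so 2 of 3 regions were gained there, beside 70.7% in the list. CATCH-IT listed 57 of the 78, or 73.1%, beside 39.4% of all protein-coding gene symbols. Of its regions there 114 were gained and 108 lost, or 51.4% gained beside 57.3% in the list.

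The lists hold no values for genes without a listed region, so the makeup of the nuclear fractions could not be read from marker levels. Of 25 markers of neurons, astrocytes, oligodendrocytes, microglia and endothelium, 4 had a listed H3.3 region, or 16%, beside 9.56% of all protein-coding gene symbols. None of these 4 marks neurons. In NeuN+ nuclei, where H3.3 fell at Erc1, Rims2 and Bsn, it rose at the astrocyte gene Aldh1l1, with 23.55 and 23.97 after enrichment and 3.01 and 9.25 in normal housing, and at 1 oligodendrocyte marker. In NeuN- nuclei H3.3 fell at the microglial gene P2ry12, with 1.16, 0 and 1.08 after enrichment and 7.58, 6.08 and 7.23 in normal housing. At 30 min it rose at the endothelial gene Pecam1, with 11.24, 11.56 and 10.29 in KCl libraries and 1.27, 4.16 and 2.93 in control libraries. CATCH-IT listed 12 of the 25, or 48%, beside 39.4% of all protein-coding gene symbols. Of its regions there 16 were gained and 12 lost, beside 57.3% gained in the list. These shares of markers take no account of gene length either. The part of these markers in the results above was not tested.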

How the data were processed

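The deposited lists hold differential regions on mm9. Alignment with Bowtie 0.12.7 and the use of bedtools 2.16.2 are named in the submitters' processing notes, without their order. Each list gives, per the file headers, normalised read counts per library packed in one cell and their group means (signal values, normalised by the authors), a ratio to input computed by the authors, the authors' log2 fold change of treated over control, and p-values and adjusted p-values deposited by the authors. The labels and headers do not name the test behind them. Packed values carry no library names, so a value is known by group only, and all of a region's p-values are the authors' own.

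From these files, the regions assigned by the authors to the 10 genes were taken, and direction was the sign of the authors' log2 fold change. "Rose" and "fell" are used where the authors' deposited adjusted p was 0.05 or less. Positions were recomputed from the mm9 gene annotation, and sequences and 32-base word counts from the mm9 genome. The value of 1 read in a library was found from the spacing of the deposited signal values, and 100% of low values were then whole within 0.1 read. The method was tested on simulated data and found the spacing within 1% in 60 of 60 libraries. The labels list 4 libraries for the 30 min control, 1 of them a repeat, and the deposited list holds 3 values. All H3.3 regions of the genes are given by name, and in CATCH-IT the 2 with the smallest adjusted p per gene. Every CATCH-IT region met the further condition of reads in all libraries of the higher group, so the remaining ones are given by counts and ranges. The genes and gene lists were chosen with earlier results of these data known. Python 3.11.15, pandas 2.3.3, numpy 2.4.6 and matplotlib 3.10.9 were used. The alternatives were a limit on the adjusted p, larger folds with a pseudocount of 1, assignment by gene span, direction by the ratio to input, and leaving out each library.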

Additional observations from a re-analysis of the deposited data

How the results depend on the processing

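Counts per list by gene span, within 10 kb, and without repeated regions stayed within 1.5 times of those reported. With a 4-fold minimum on means with a pseudocount of 1, the lost regions came to 0 at 30 min, 0 at 2 hr, 0 at 5 hr, 0 in NeuN+ and 0 in NeuN- nuclei, and the gained ones to 0 at 5 hr and 2 in NeuN- nuclei. With a 3-fold minimum and that pseudocount, chosen after seeing the data, 0 gained regions were left at 5 hr and 1 lost region in NeuN+ nuclei. An adjusted p of 0.05 or less in the authors' deposited table left 0 gained and 0 lost regions at 5 hr. By finite ratios to input, 7 gained and 3 lost CATCH-IT regions were left, since most ratios are infinite. Without regions with a library at a multiple of 6 reads, also chosen after seeing the data, 18 gained and 2 lost CATCH-IT regions were left. Leaving out each library in turn, with the 3-fold minimum on plain means, gave 0 to 1 gained and 1 lost region at 5 hr and 1 to 3 lost regions in NeuN+ nuclei. Leaving out each library together with a pseudocount of 1, also chosen after seeing the data, gave 0 gained and 0 to 1 lost regions at 5 hr and 0 to 3 lost regions in NeuN+ nuclei. None of the 84 values of the H3.3 regions with a library left out reversed, which must be so where the groups do not overlap. Of these values 7 fell under 3-fold. Apart from the fold minimum and the finite ratios, where the construction removes regions, the cause was not tested. No paired analysis was possible because the packed values carry no library names or replicate numbers.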
